A study of Homo sapiens with 31 samples.

Results

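The account concerns PANC-1 cells with the KHSRP knockout genotype label after 4 h of actinomycin D, compared with cells of the same label at 0 h of the drug. The members were defined by title and treatment label, though earlier results of these data were known when they were chosen. They are 2 libraries titled KHSRPKO at 4 h and 2 titled KHSRPKO at 0 h, 4 of the 31 samples in the series. PANC-1 is an established human cell line from a carcinoma of the pancreatic duct. The series studied KHSRP as a reader of N6-methyladenosine (m6A), and the time course asked how the protein affects mRNA lifetime. It holds crosslinking libraries, steady-state RNA-seq, and 20 RNA-seq libraries under actinomycin D, with 2 libraries for each genotype label at 0, 2, 4, 6 and 8 h. The genotype labels are KHSRP knockout, here KO, and WT for the libraries titled NC. All 20 libraries carry an actinomycin D label, the 0 h libraries with a time of 0. The labels do not say how the knockout was made, whether it is 1 clone, what dose of the drug was used, or whether the libraries of a group came from separate cultures. The p-values below therefore speak only of how these libraries differ among themselves, a difference that may be purely technical.

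Actinomycin D is a DNA-binding drug that stops RNA polymerases from elongating, so that the mRNAs present decay without being replaced. It is used to rank mRNAs by lifetime: mRNAs of immediate early transcription factors, cytokines and feedback inhibitors are known as short-lived, and those of ribosomal proteins, glycolytic enzymes and cytoskeletal proteins as long-lived. KHSRP, also called KSRP, is an RNA-binding protein with KH domains that binds AU-rich elements, recruits the decay machinery to short-lived mRNAs and takes part in the maturation of microRNAs such as let-7. CPM values, counts scaled to library size, report the share of a library that a gene takes, so a gene's CPM rises when its mRNA is lost more slowly than the mRNAs around it, even while its own amount falls.

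Total counts were 21538406 and 23293721 in the 4 h libraries and 21713285 and 19177934 in the 0 h libraries, within the 19177934 to 25768060 of the 20 libraries. KHSRP itself was at 148 and 151 CPM at 4 h and 138 and 149 CPM at 0 h, where the NC libraries had 375 and 375 CPM at 4 h and 439 and 453 CPM at 0 h. The transcript was thus about as abundant at 4 h as at 0 h in the KO-labelled cells (log2 change 0.06, SE 0.05, adjusted p = 0.386), lower than in the NC-labelled cells, and not absent. CDKN2A, a cell cycle inhibitor gene known to be deleted in PANC-1, had 0 counts in all 4 KO libraries, against 2728 and 3037 counts in the NC libraries at 4 h and 4779 and 4466 counts at 0 h. The keratins KRT8 and KRT18 of ductal epithelium were among the abundant transcripts of the KO libraries. In unscaled CPM, the 9 ductal keratins summed to 5295 and 5157 at 4 h and 5698 and 5692 at 0 h. Not all of them were high. At 4 h KRT19 had 437 and 434 CPM and KRT80 had 301 and 293 CPM, but KRT7 had only 11.7 and 12.2 CPM. KRT81, KRT17, KRT5 and KRT20 were lower still. In the NC libraries at 4 h KRT7 had 609 and 585 CPM and KRT17 had 313 and 308 CPM, while KRT19 was at 0. Markers of other cells were low: 12 immune markers summed to 157 and 149 CPM at 4 h and 202 and 199 CPM at 0 h, nearly all of it CD68, with PTPRC, CD3D and MS4A1 at 0. The 10 fibroblast markers summed to 70.4 and 74.9 CPM at 4 h and 54.6 and 61.7 CPM at 0 h, with COL1A2, DCN and FAP at 0, and the 8 endothelial markers to 26.6 and 31.8 CPM at 4 h and 29.7 and 29.4 CPM at 0 h, with TEK, ERG and CLDN5 at 0. The 8 acinar markers, 4 of them at 0, summed to 0.186 and 0.129 CPM at 4 h and 0.737 and 0 CPM at 0 h, and the 9 endocrine markers, 5 of them at 0, to 4.46 and 4.42 CPM at 4 h and 4.79 and 4.85 CPM at 0 h.

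The order of short-lived transcripts over labelled time was not one of steady loss, and it bears on every result below. CCN1, an immediate early gene for a secreted matrix protein, had 94.9 and 84.2 CPM in KO libraries at 0 h, 65.5 and 60.8 at 2 h, 281 and 284 at 4 h, 1303 and 1292 at 6 h, and 62.2 and 59.4 at 8 h. FOS, a component of the AP-1 transcription factor, had 1.14 and 0.537 CPM at 0 h, 0.873 and 1.25 at 4 h, 65.3 and 65.7 at 6 h, and 0.536 and 0.858 at 8 h. The 4 h libraries were thus intermediate between low values at 0, 2 and 8 h and the highest values at 6 h for CCN1, while FOS was at its 0 h level. In the NC libraries FOS was at 537 and 516 CPM at 4 h, against 7.22 and 6.38 CPM at 0 h. A transcript with a short lifetime is known to fall under the drug, so the libraries labelled 0 h and 4 h go against that order. Whether the labels, the handling of the cells or the drug are involved was not tested, and every direction below is that of the libraries so labelled.

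**Figure D1:**
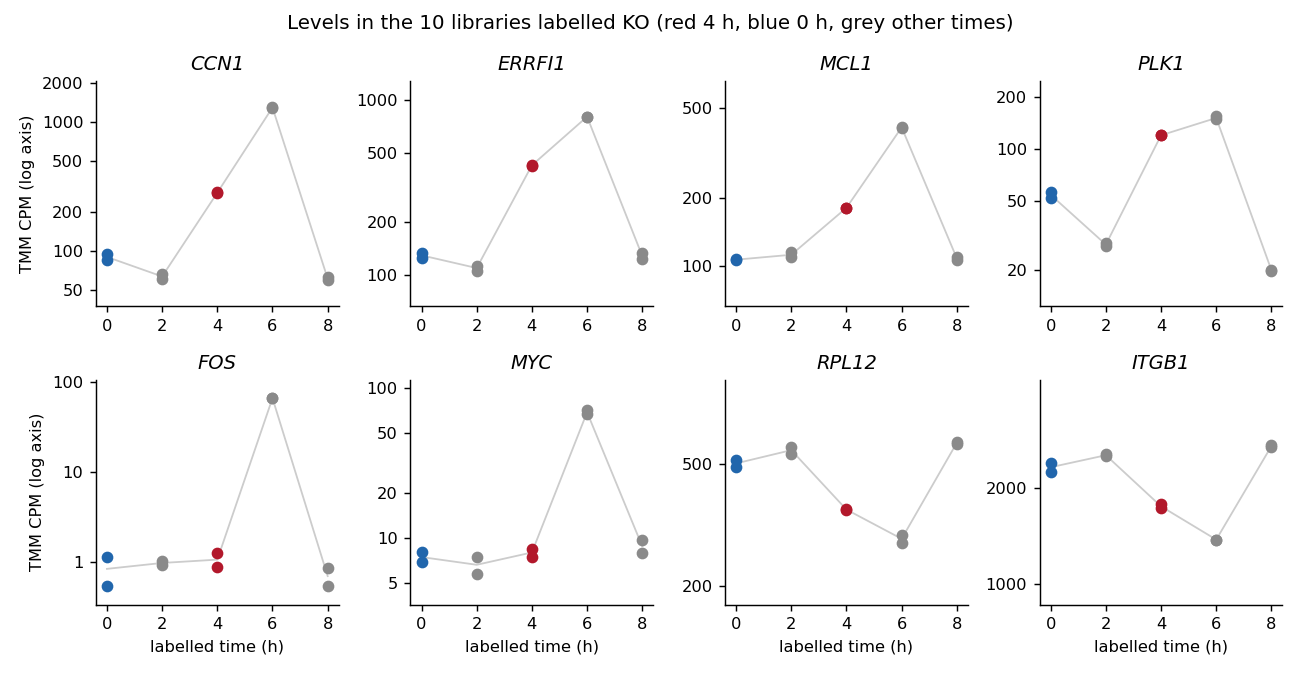
TMM-scaled CPM (log axis) of 8 genes against labelled time in h in the 10 KO-labelled libraries, each point 1 library and the line the mean of 2. CCN1, ERRFI1, MCL1 and PLK1 were higher in both 4 h libraries (red) than in both 0 h libraries (blue) and higher still at 6 h. FOS and MYC overlapped between 4 h and 0 h, and RPL12 and ITGB1 were lower at 4 h and lowest at 6 h. The median change of the ribosomal protein genes was -0.38 with TMM and -0.02 on a scale set by these genes. RPL12, at -0.50 with TMM, fell further than that median. ITGB1 was not called lower on the scale set by ribosomal protein genes.

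Across 17715 genes tested with edgeR's quasi-likelihood test, 2117 (12%) were higher and 2784 (15.7%) lower at 4 h than at 0 h at an adjusted p under 0.05. The rises were larger than the falls. Of the genes past the threshold, 510 had a log2 change of 1 or more (2.88% of all tested), against 67 with a log2 change of -1 or less (0.378%). Among the 9397 genes with a mean of at least 10 CPM over the 4 libraries, 184 (1.96%) rose by that much and only SMG1P1 (0.0106%) fell by it. The median log2 change of all tested genes was -0.04, with quartiles of -0.27 and 0.30. Both 4 h libraries were above both 0 h libraries for 25.5% of the genes and below them for 33.7%. Every remark below that the libraries of the groups lay apart is to be read against these shares. Many of the genes named were chosen for large changes, so such a gap adds little.

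These splits depend on the scaling, since a share can move without the amount doing so. Higher calls were 43.2% of all calls with TMM scaling, 72.1% with plain library totals (3025 higher, 1171 lower), 99% on a scale set by the ribosomal protein genes (6226 higher, 60 lower), and 7.22% on the molecule scale that the authors deposited (494 higher, 6344 lower). With only the 4 libraries in the fit they were 54.2%, with the 10 KO libraries 54.6%, without the libraries of KO 6 h and NC 4 h 54.1%, and without a filter on low counts 56.7%. The median change of all genes was 0.07 with plain totals, 0.29 with ribosomal protein scaling and -0.47 on the molecule scale. The deposited molecules summed, in units of 1000000000, to 102.354 and 96.95 at 4 h and to 161.605 and 147.734 at 0 h, so that on this scale most genes were lower at 4 h. No source used here says how the molecule scale was set. Changes below are TMM changes, to be read against a median near 0. Counts of list members are to be read against the 12% of all genes that rose and the 15.7% that fell.

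**Figure D2:**
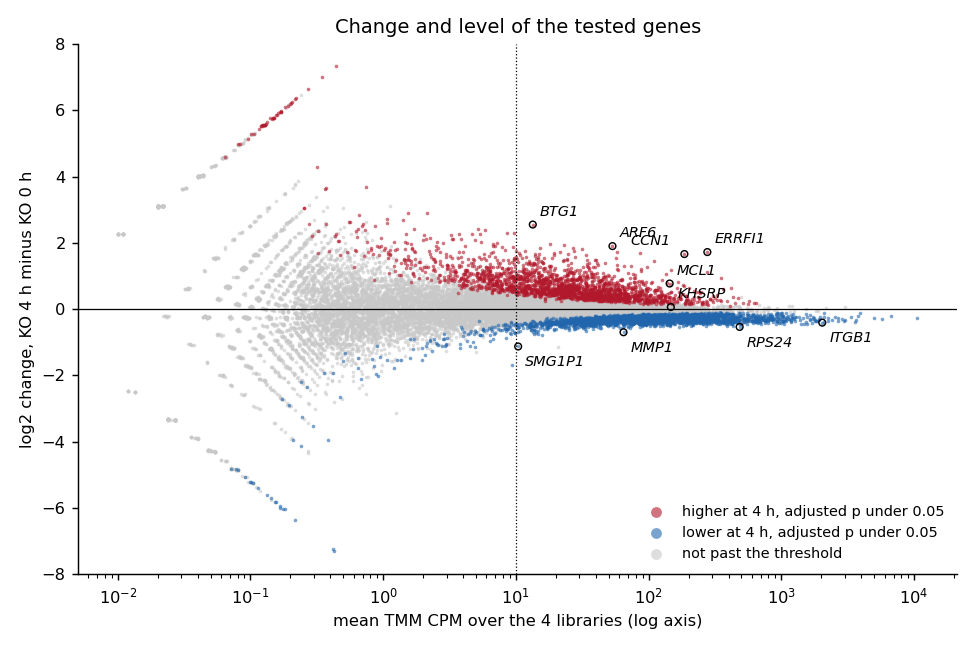
Log2 change (KO 4 h minus KO 0 h) against mean TMM CPM over the 4 libraries (log axis) for the tested genes with a count in them, red where higher and blue where lower at an adjusted p under 0.05, with 10 genes labelled and a dotted line at 10 CPM. Right of that line 184 genes rose by 1 or more on the log2 scale, among them BTG1, ARF6 and ERRFI1, and SMG1P1 alone fell by that much.

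The largest rises among genes of at least 10 CPM included transcription and chromatin factors, RNA-processing factors and a feedback inhibitor of growth factor signalling. BTG1, an antiproliferative protein that binds the CCR4-NOT deadenylase, had 25.2 and 20.7 CPM at 4 h and 3.29 and 4.56 CPM at 0 h. CEBPB, a bZIP transcription factor of the acute-phase and stress response, had 27.6 and 29.8 CPM at 4 h and 7.53 and 7.3 CPM at 0 h. ERRFI1, a feedback inhibitor of the EGF receptor, had 428 and 421 CPM at 4 h and 125 and 134 CPM at 0 h. The log2 changes of these 3 genes were 2.55 (SE 0.18, adjusted p = 2.4e-14), 1.95 (SE 0.15, adjusted p = 1.8e-13) and 1.72 (SE 0.06, adjusted p = 2.12e-21). The largest rises were taken only from genes with both 4 h libraries above both 0 h libraries, which held for 25.5% of all genes. ARF6, a small GTPase of endosome recycling and membrane ruffling, had 89.4 and 79.1 CPM at 4 h and 24 and 21.2 CPM at 0 h (log2 change 1.90, SE 0.10, adjusted p = 7e-18). SIN3A, the scaffold of a histone deacetylase complex, had 50.5 and 47.2 CPM at 4 h and 14.5 and 13 CPM at 0 h (log2 change 1.82, SE 0.11, adjusted p = 5.67e-16). BCOR, a corepressor that binds BCL6, had 43.7 and 40.1 CPM at 4 h and 13.2 and 10.4 CPM at 0 h (log2 change 1.83, SE 0.12, adjusted p = 1e-14). These 3 were chosen under the same condition.

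MPHOSPH10 and WDR43, both nucleolar proteins that act in the processing of pre-ribosomal RNA, rose together. MPHOSPH10 had 37.1 and 35.6 CPM at 4 h and 10.2 and 8.7 CPM at 0 h (log2 change 1.94, SE 0.12, adjusted p = 1.22e-15). WDR43 had 42.8 and 41.8 CPM at 4 h and 12.1 and 13.3 CPM at 0 h (log2 change 1.74, SE 0.11, adjusted p = 5.67e-16). DBR1, the enzyme that debranches intron lariats, had 17.2 and 19.4 CPM at 4 h and 4.82 and 6.01 CPM at 0 h and rose by 1.76 (SE 0.18, adjusted p = 1.99e-10). RNF19B, a ubiquitin ligase, and B3GNT2, a glycosyltransferase that extends polylactosamine chains, were also among the 12 largest rises, with log2 changes of 1.83 and 1.73 (adjusted p = 1.23e-10 and 6.93e-12). Each of the 12 was higher again in both KO libraries at 6 h, by values such as 52.3 and 51.1 CPM for BTG1, 168 and 175 CPM for ARF6 and 805 and 806 CPM for ERRFI1. The call of each of the 12 stood without any 1 of the 4 libraries. In hg19, as the deposited tables give it, ERRFI1 lies on chr1:8071787-8086369 (minus strand), BTG1 on chr12:92534054-92539622 (minus strand), ARF6 on chr14:50359800-50363772 (plus strand) and CEBPB on chr20:48807120-48809227 (plus strand).

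The largest falls were smaller and came from genes of lower level. Among them APOO and CHCHD6, both subunits of the MICOS complex that shapes mitochondrial cristae, fell: APOO had 11 and 11.9 CPM at 4 h and 18.4 and 21.2 CPM at 0 h (log2 change -0.78, SE 0.14, adjusted p = 2.93e-05). CHCHD6 had 9.3 and 11.3 CPM at 4 h and 17.5 and 15.9 CPM at 0 h (log2 change -0.70, SE 0.16, adjusted p = 0.00047). COX14, an assembly factor of cytochrome c oxidase, had 10.8 and 10.5 CPM at 4 h and 15.2 and 20.2 CPM at 0 h (log2 change -0.73, SE 0.16, adjusted p = 0.000378). GDAP1, a protein of mitochondrial dynamics, had 11.2 and 11.8 CPM at 4 h and 19.2 and 16.8 CPM at 0 h (log2 change -0.65, SE 0.13, adjusted p = 0.000104). MMP1, an interstitial collagenase, had 46.3 and 52.2 CPM at 4 h and 81.1 and 79.1 CPM at 0 h (log2 change -0.70, SE 0.10, adjusted p = 1.04e-06). SWI5, a recombination factor, had 11.8 and 8.75 CPM at 4 h and 18 and 16.5 CPM at 0 h (log2 change -0.75, SE 0.12, adjusted p = 5.03e-06). All 6 were lower in both 4 h libraries than in either 0 h library, as the choice of the largest falls required. The same held for 33.7% of all genes. The other 6 were less certain. ZMAT5, a protein of the minor spliceosome, had 8.6 and 7.99 CPM at 4 h and 12.5 and 13.9 CPM at 0 h (log2 change -0.67, SE 0.20, adjusted p = 0.00777), and the call was lost without the second 4 h library (adjusted p = 0.078) and without the second 0 h library (adjusted p = 0.0758). SMG1P1, RPSAP47, FKBP1C and WTAPP1 are a pseudogene or a near copy of another gene, and SLC25A25-AS1 is an antisense RNA, so their reads cannot be told apart from those of a partner with certainty. SMG1P1 had 5.76 and 7.26 CPM at 4 h and 15.9 and 12.7 CPM at 0 h (log2 change -1.13, SE 0.26, adjusted p = 0.00112), and SLC25A25-AS1 changed by -0.70 (adjusted p = 0.000757). The calls of RPSAP47 (-0.74) and FKBP1C (-0.66) were lost without the second 4 h library, at adjusted p = 0.0707 and 0.0975, and that of WTAPP1 (-0.65) was lost without any 1 of the 4 libraries, at adjusted p = 0.053 to 0.13.

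Ribosomal protein genes were lower almost throughout on the TMM scale, though not on a scale set by themselves. Of 79 cytosolic ribosomal protein genes, all tested, 74 were lower at 4 h, none was higher and 5 did not pass, where 15.7% of all genes were lower. Their median log2 change was -0.38. On the scale set by these same genes that median was -0.02, with 4 higher and 3 lower, and on the molecule scale it was -0.80. RPS24 had 403 and 387 CPM at 4 h and 572 and 576 CPM at 0 h (log2 change -0.54, SE 0.04, adjusted p = 3.35e-14). RPL12 had 354 and 357 CPM at 4 h and 491 and 517 CPM at 0 h (log2 change -0.50, SE 0.04, adjusted p = 9.01e-14). RPS2 had 1298 and 1315 CPM at 4 h and 1830 and 1766 CPM at 0 h (log2 change -0.46, SE 0.04, adjusted p = 2.95e-11). In each of them the libraries of the groups lay apart by far more than the replicates did. RPL12 was at 571 and 543 CPM at 2 h, 293 and 277 CPM at 6 h, and 585 and 593 CPM at 8 h, so the 4 h libraries lay between 0 h and 6 h. In hg19 RPS24 lies on chr10:79793621-79816564 (plus strand).

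The mRNAs of ribosomal proteins are known for a tract of pyrimidines that begins at their first base. The starts of the 6 largest falls among members that hold CTTTC anywhere in a window around the annotated start are shown, followed by those of the first 6 of the 12 largest rises that have an entry, so that the starts of mRNAs that fell together can be read beside starts of mRNAs that rose. Each line runs 5′ to 3′ on the transcript strand from 10 bases before the annotated RefSeq start to 20 from it, in GRCh38.p14, with CTTTC in capitals.
RPL12, chr9:127451387-127451416, minus strand: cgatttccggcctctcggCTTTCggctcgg
RPL41, chr12:56116623-56116652, plus strand: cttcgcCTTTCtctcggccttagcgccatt
RPL35, chr9:124861938-124861967, minus strand: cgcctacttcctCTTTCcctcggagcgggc
RPL28, chr19:55385922-55385951, plus strand: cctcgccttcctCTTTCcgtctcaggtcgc
RPS19, chr19:41860245-41860274, plus strand: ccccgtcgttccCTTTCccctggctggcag
RPS12, chr6:132814559-132814588, plus strand: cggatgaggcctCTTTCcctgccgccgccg
BTG1, chr12:92145827-92145856, minus strand: tgcatctcttcgcctctcggagctggaaat
CEBPB, chr20:50190573-50190602, plus strand: cccctctcgctcccaatcccggggcggccg
ARF6, chr14:49893072-49893101, plus strand: ggcgccttttccggcagcggcggcggcaga
BCOR, chrX:40177258-40177287, minus strand: aaatcgggtcacactagacaaggctgcatg
SIN3A, chr15:75455796-75455825, minus strand: gttcccccccattcaggactcctcgcctgg
WDR43, chr2:28894657-28894686, plus strand: gcgcacggacgaacacgtggctgcagcggg
In none of the first 6 lines does CTTTC begin at the annotated first base. In RPL35, RPL28, RPS19 and RPS12 it lies inside an unbroken run of pyrimidines that covers that base. In RPL41 it ends at that base, and in RPL12 bases other than pyrimidines part it from the run there. The first 6 lines hold CTTTC by choice, so the share over all members is the measure. Over the 63 ribosomal protein genes with an entry, 29 (46%) held CTTTC on the transcript strand in this window, against 1110 of 27305 annotated starts (4.07%). Of the 12 largest rises 8 had an entry, and 0 of these 8 held it. Among tested genes with an entry, 3.45% of those that rose held it, and 3.72% of those that fell once ribosomal protein genes were left out. For the nuclear genes of oxidative phosphorylation, which fell as uniformly, it was 1 of 22 (4.55%). A match describes these letters only.

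RPL12, RPL41, RPL35, RPL28, RPS19 and RPS12 changed by -0.50, -0.44, -0.41, -0.41, -0.40 and -0.39 on the log2 scale, all past the threshold. They belong to both subunits of the ribosome, and all 6 were lower in both 4 h libraries. The nuclear genes of oxidative phosphorylation followed the same course. Of 30, all tested, 28 fell and none rose, with a median of -0.34, which became 0.01 on the ribosomal protein scale. On that scale 1 was called higher and none lower. NDUFA1, a subunit of complex I, had 26.7 and 27.6 CPM at 4 h and 37.1 and 41.2 CPM at 0 h (log2 change -0.53, SE 0.12, adjusted p = 0.000786). ATP5PO, in the stalk of ATP synthase, had 132 and 134 CPM at 4 h and 181 and 180 CPM at 0 h (log2 change -0.44, SE 0.06, adjusted p = 2.96e-08). COX7C, a subunit of cytochrome c oxidase, had 71.7 and 74.2 CPM at 4 h and 96.8 and 102 CPM at 0 h (log2 change -0.45, SE 0.06, adjusted p = 6.75e-07). The 37 genes of the mitochondrial genome were at 0 counts in all 20 tables, so the mitochondrially encoded subunits are not described here. Of the abundant reference transcripts, GAPDH had 2610 and 2561 CPM at 4 h and 3305 and 3382 CPM at 0 h (log2 change -0.37, SE 0.03, adjusted p = 4.45e-14). ACTB had 6275 and 6149 CPM at 4 h and 7061 and 7225 CPM at 0 h (log2 change -0.20, SE 0.04, adjusted p = 0.00017). ACTB was higher, by 0.15, on the ribosomal protein scale. Glycolytic and hypoxia-induced genes split: 12 of 28 fell and 5 rose, with a median of -0.15 that became 0.21 on the ribosomal protein scale. None of the 28, GAPDH and ALDOC included, was called lower on that scale. DDIT4, an inhibitor of mTOR signalling, had 10.2 and 7.34 CPM at 4 h and 1.76 and 3.87 CPM at 0 h (log2 change 1.66, SE 0.24, adjusted p = 3.33e-06). EGLN1, the oxygen-sensing prolyl hydroxylase, had 83.6 and 77.9 CPM at 4 h and 40.2 and 47.8 CPM at 0 h (log2 change 0.88, SE 0.08, adjusted p = 6.31e-12). The aldolase ALDOC fell, with 4.45 and 6.05 CPM at 4 h and 8.49 and 8.7 CPM at 0 h (log2 change -0.71, SE 0.17, adjusted p = 0.00136), though its call was lost without the first 4 h library (adjusted p = 0.0769).

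**Figure D3:**
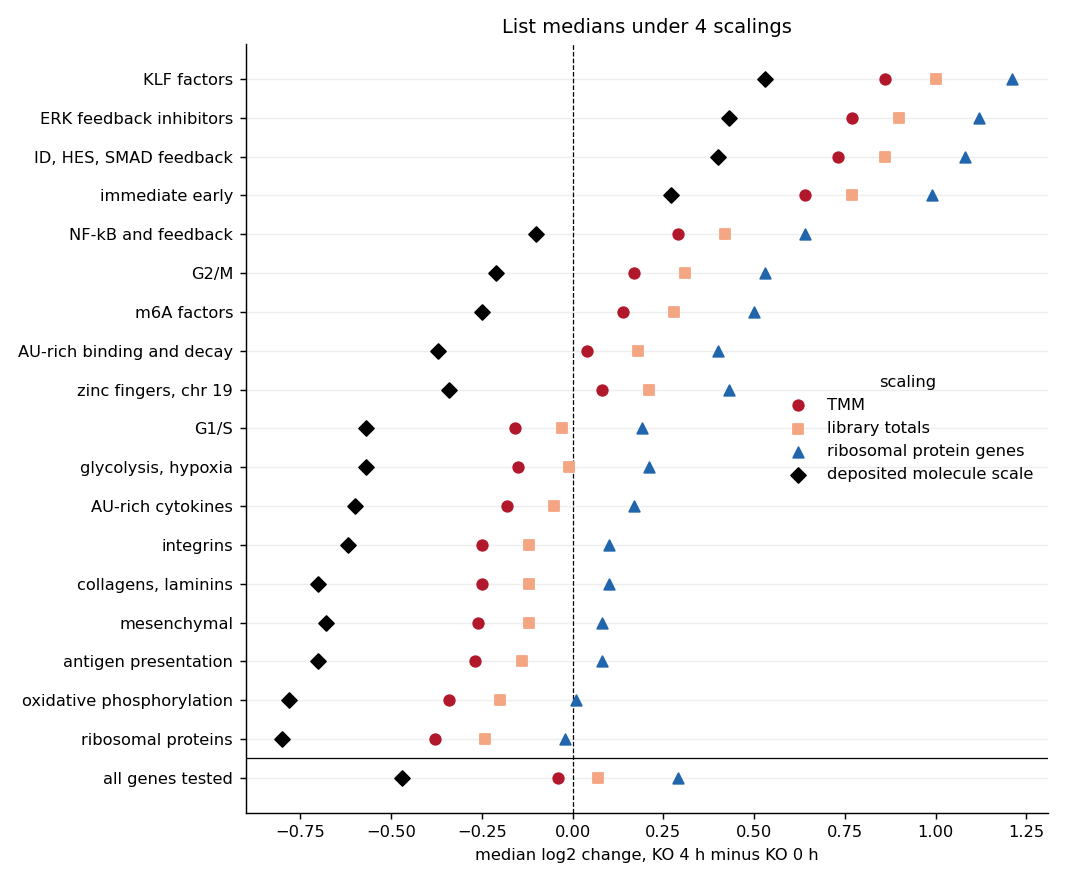
Median log2 change (KO 4 h minus KO 0 h) over the tested members of 18 gene lists and over all tested genes, under 4 scalings marked by symbol. Immediate early genes, KLF factors, ERK feedback inhibitors and the ID, HES and SMAD list stayed above 0 under all 4, ribosomal protein and oxidative phosphorylation genes were at -0.38 and -0.34 with TMM but at -0.02 and 0.01 on the ribosomal protein scale, and G2/M, m6A and NF-kB lists were below 0 on the molecule scale alone. In each of the first 4 lists named, fewer members were called higher on the molecule scale than with TMM.

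Immediate early genes, which encode the AP-1 and EGR factors and other first responders to growth signals, were mostly higher at 4 h. Of 20 listed, all tested, 14 rose and none fell, where 12% of all genes rose, with a median of 0.64. That median was 0.27 on the molecule scale, where 7 rose. CCN1 rose the most among those with at least 10 CPM (log2 change 1.66, SE 0.06, adjusted p = 2.5e-23; chr1:86046444-86049633, plus strand, hg19), and its 4 h and 0 h values are given above. FOSL1, an AP-1 partner tied to invasive growth, had 68.1 and 68.7 CPM at 4 h and 26.2 and 25.8 CPM at 0 h (log2 change 1.40, SE 0.19, adjusted p = 6.61e-05). JUN had 28 and 30.7 CPM at 4 h and 19 and 19.3 CPM at 0 h (log2 change 0.62, SE 0.12, adjusted p = 7.68e-05). CCN2, a matrix protein induced by YAP, had 126 and 120 CPM at 4 h and 77.3 and 85.5 CPM at 0 h (log2 change 0.60, SE 0.07, adjusted p = 1.98e-09). In all of these the groups were apart. The best-known members did not pass: FOS had the values given above (log2 change 0.32, SE 0.32, adjusted p = 0.553). EGR1 had 2.1 and 2.54 CPM at 4 h and 2.53 and 2.31 CPM at 0 h (log2 change -0.06, SE 0.22, adjusted p = 0.908), and in both genes the libraries of the groups overlapped. EGR2 was called higher from 0.349 and 0.161 CPM at 4 h with 0 counts in both 0 h libraries, so no fold is given for it. At 6 h the KO libraries had 61.5 and 57.5 CPM of EGR1 and 186 and 198 CPM of JUN.

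Several other mRNAs known as short-lived rose too. MCL1, a survival protein of the BCL2 family whose mRNA and protein both turn over fast, had 181 and 181 CPM at 4 h and 106 and 107 CPM at 0 h (log2 change 0.77, SE 0.05, adjusted p = 3.65e-15), with 410 and 413 CPM at 6 h. MYC, the growth-promoting transcription factor, had 8.47 and 7.5 CPM at 4 h and 8.01 and 6.87 CPM at 0 h and did not pass (log2 change 0.10, SE 0.14, adjusted p = 0.713), against 66.9 and 71.3 CPM at 6 h. Of 12 Krüppel-like factors, all tested, 10 rose and none fell (median 0.86). On the molecule scale 5 rose and none fell. KLF4, a regulator of epithelial differentiation, had 12.5 and 12 CPM at 4 h and 3.82 and 2.85 CPM at 0 h (log2 change 1.87, SE 0.17, adjusted p = 1.55e-11). KLF5, known for its role in gut epithelium, had 6.42 and 4.48 CPM at 4 h and 0.954 and 1.61 CPM at 0 h (log2 change 2.10, SE 0.25, adjusted p = 1.6e-08). KLF10, induced by TGF-beta, had 25.9 and 19.3 CPM at 4 h and 12.8 and 11.5 CPM at 0 h (log2 change 0.89, SE 0.15, adjusted p = 6.46e-06). The groups did not overlap in any of the 3. KLF6 did not pass, at 64.4 and 56.9 CPM at 4 h and 48.6 and 57 CPM at 0 h (log2 change 0.20, SE 0.10, adjusted p = 0.129), though it passed without the second 0 h library (0.32, adjusted p = 0.0489). Feedback inhibitors of the ERK pathway rose in 8 of 15, none falling (median 0.77), but on the molecule scale only 2 rose. SPRED2 had 81.8 and 84.6 CPM at 4 h and 32 and 34 CPM at 0 h (log2 change 1.34, SE 0.10, adjusted p = 2.01e-13). The ERK phosphatase DUSP5 had 15.1 and 16 CPM at 4 h and 6.06 and 8.11 CPM at 0 h (log2 change 1.14, SE 0.23, adjusted p = 0.00022). DUSP1 and SPRY4 did not pass, at log2 changes of 0.36 (adjusted p = 0.308) and -0.20 (adjusted p = 0.364). DUSP1 passed without the second 4 h library (0.69, adjusted p = 0.0217) and without the first 0 h library (0.89, adjusted p = 0.0134).

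Of 13 ID, HES and SMAD feedback genes tested (14 listed), 9 rose and none fell (median 0.73). On the molecule scale 5 rose and none fell. ID3, an inhibitor of bHLH transcription factors, had 15.1 and 13.1 CPM at 4 h and 2.67 and 3.11 CPM at 0 h (log2 change 2.29, SE 0.18, adjusted p = 2.38e-13). ID1 had 45 and 39.4 CPM at 4 h and 23.9 and 27.1 CPM at 0 h (log2 change 0.73, SE 0.11, adjusted p = 1.32e-06). The clock-linked repressor BHLHE40 had 23.6 and 24.2 CPM at 4 h and 11.1 and 12.7 CPM at 0 h (log2 change 1.01, SE 0.12, adjusted p = 5.61e-09). SKI, a repressor of SMAD signalling, had 78.3 and 67.7 CPM at 4 h and 38.9 and 33.3 CPM at 0 h (log2 change 1.01, SE 0.10, adjusted p = 9.07e-11). In all 4 genes both 4 h libraries were higher. HES1 overlapped between the groups, with 1.62 and 1.37 CPM at 4 h and 0.477 and 2.36 CPM at 0 h (log2 change 0.11, SE 0.49, adjusted p = 0.931), and passed only without the second 0 h library (1.63, adjusted p = 0.0421). Of 14 NF-kB subunits and feedback genes, 5 rose and 1 fell (median 0.29, but -0.10 on the molecule scale). On that scale none was called higher and 4 were lower. RELA, the main transactivating subunit, had 99.4 and 98.8 CPM at 4 h and 76 and 71.2 CPM at 0 h (log2 change 0.43, SE 0.07, adjusted p = 5.18e-06). NFKBIE, one of the inhibitors that hold it in the cytoplasm, had 14.5 and 15.9 CPM at 4 h and 7.63 and 8.43 CPM at 0 h (log2 change 0.92, SE 0.22, adjusted p = 0.000932). NFKBIA, the fastest-responding inhibitor, changed by 0.55 without passing (adjusted p = 0.061), but passed without the second 0 h library (0.94, adjusted p = 0.0108), and the call of NFKB1 (0.40) was lost without the second 0 h library (adjusted p = 0.133). AU-rich cytokine and growth factor mRNAs, the class that KHSRP is best known to destabilise, went little beyond the background: 2 rose (10%) and 4 fell (20%) of 20 tested (22 listed), where 12% of all genes rose and 15.7% fell, with a median of -0.18, or 0.17 on the ribosomal protein scale. VEGFA, the vascular growth factor, rose by 0.30, a call lost without any 1 of the 4 libraries (adjusted p = 0.0512 to 0.145). PLAUR, the urokinase receptor, fell by 0.42, a call lost without the first 4 h library (adjusted p = 0.25) and without the second 0 h library (adjusted p = 0.299).

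**Figure D4:**
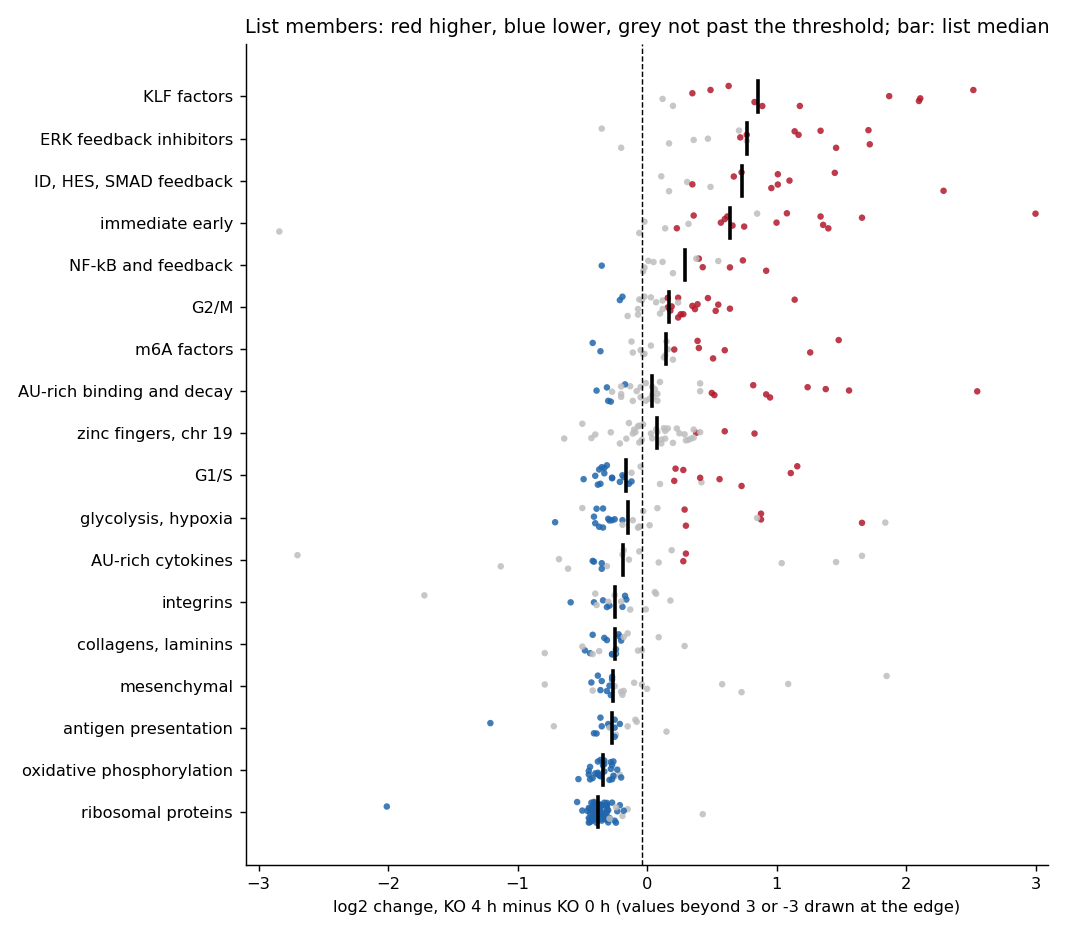
Log2 change (KO 4 h minus KO 0 h) of the tested members of 18 gene lists, each point a gene, red where higher and blue where lower at an adjusted p under 0.05, with a bar at each list's median and a dashed line at the median of all genes (-0.04). KLF factors, ERK feedback inhibitors and immediate early genes have medians of 0.86, 0.77 and 0.64 with no blue point, and 74 of 79 ribosomal protein genes are blue at a median of -0.38, which was -0.02 on the ribosomal protein scale.

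Readers, writers and remodelers of m6A, the mark that the series is about, moved in part. Of 20, all tested, 7 rose and 2 fell, with a median of 0.14 that became -0.25 on the molecule scale. On that scale 2 were called higher and 8 lower. YTHDF2, the reader that directs m6A-marked mRNAs to decay, had 58 and 60.1 CPM at 4 h and 20.2 and 22.1 CPM at 0 h (log2 change 1.48, SE 0.11, adjusted p = 3.35e-14). YTHDF1, a reader tied to translation, had 48.8 and 42.4 CPM at 4 h and 22 and 15.9 CPM at 0 h (log2 change 1.26, SE 0.11, adjusted p = 1.43e-11). YTHDF3 had 89.3 and 87.3 CPM at 4 h and 67.1 and 67.6 CPM at 0 h (log2 change 0.39, SE 0.07, adjusted p = 1.01e-05), so all 3 of these readers rose, though YTHDF3 was at 0.02 on the molecule scale. Of the writer complex, the adaptor RBM15B had 62.2 and 63 CPM at 4 h and 41.8 and 40.7 CPM at 0 h (log2 change 0.60, SE 0.09, adjusted p = 1.21e-06). The regulatory subunit WTAP had 77.8 and 75.6 CPM at 4 h and 57.2 and 59.3 CPM at 0 h (log2 change 0.40, SE 0.09, adjusted p = 0.000554). The catalytic core was not moved past the threshold: METTL3 had 41.5 and 46.3 CPM at 4 h and 44.5 and 45.5 CPM at 0 h (adjusted p = 0.866) and METTL14 had 17.5 and 17.5 CPM at 4 h and 16.1 and 15.4 CPM at 0 h (adjusted p = 0.542). HNRNPA2B1 and HNRNPC, nuclear RNA-binding proteins affected by the mark, fell, with 1434 and 1469 CPM at 4 h and 1998 and 1873 CPM at 0 h for the first (log2 change -0.42, SE 0.03, adjusted p = 4.16e-13) and a log2 change of -0.36 (adjusted p = 2.18e-10) for the second. Neither was called lower on the ribosomal protein scale.

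Among AU-rich element binding proteins and decay factors, 9 of 35 rose (25.7%) and 5 fell (14.3%), where 12% of all genes rose and 15.7% fell. Their median was 0.04, but -0.37 on the molecule scale. The rises were led by BTG1 and by TOB1, another adaptor that brings the deadenylase to mRNAs, which had 18 and 17.4 CPM at 4 h and 4.91 and 7.14 CPM at 0 h (log2 change 1.56, SE 0.15, adjusted p = 4.75e-11). CNOT6L, a catalytic deadenylase subunit, had 18.7 and 21.3 CPM at 4 h and 7.63 and 7.73 CPM at 0 h (log2 change 1.38, SE 0.18, adjusted p = 7.59e-08). ZFP36L2, which binds AU-rich elements as KHSRP does, had 26.8 and 28.9 CPM at 4 h and 12.1 and 11.5 CPM at 0 h (log2 change 1.24, SE 0.13, adjusted p = 3.64e-10). Its relative ZFP36 had 54.6 and 60.8 CPM at 4 h and 68.1 and 57.9 CPM at 0 h and did not pass (log2 change -0.13, SE 0.08, adjusted p = 0.267), though it was at 456 and 449 CPM at 6 h. The FUBP relatives of KHSRP did not rise: FUBP1 had 231 and 220 CPM at 4 h and 249 and 239 CPM at 0 h (log2 change -0.12, SE 0.05, adjusted p = 0.0537). FUBP3 had 83.6 and 89.8 CPM at 4 h and 102 and 101 CPM at 0 h (log2 change -0.23, SE 0.06, adjusted p = 0.00132), a fall whose call was lost without the first 4 h library (adjusted p = 0.057). Both were higher on the ribosomal protein scale, by 0.24 and 0.12. The poly(A)-binding protein genes PABPC1 and PABPC4 fell by 0.30 and 0.39, the first of which was higher by 0.05 on that scale. PABPC4 was not called lower there.

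Targets and factors of the let-7 microRNAs went both ways, with 5 up and 5 down of 23 (21.7% each), where 12% of all genes rose and 15.7% fell. CDK6, a kinase of the G1 phase, had 135 and 146 CPM at 4 h and 94.1 and 93.2 CPM at 0 h (log2 change 0.58, SE 0.05, adjusted p = 7.86e-12). HMGA1, a chromatin protein, had 1484 and 1392 CPM at 4 h and 1814 and 1837 CPM at 0 h (log2 change -0.34, SE 0.05, adjusted p = 2.98e-06), a change that was 0.01 on the ribosomal protein scale. AGO2, the Argonaute that carries microRNAs, had 139 and 137 CPM at 4 h and 108 and 120 CPM at 0 h (log2 change 0.27, SE 0.06, adjusted p = 0.000177), but was at -0.11 on the molecule scale. The list's median of -0.02 was close to that of all genes.

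Mitotic genes were mostly higher and replication genes mostly lower on the TMM scale, though not under every scaling. Of 30 G2/M genes, all tested, 16 rose and 2 fell (median 0.17, but -0.21 on the molecule scale, with 2 higher and 11 lower there). PLK1, the kinase that drives mitotic entry, had 120 and 120 CPM at 4 h and 56.6 and 52.3 CPM at 0 h (log2 change 1.14, SE 0.07, adjusted p = 5.34e-17), far above its 27.7 and 28.6 CPM at 2 h and 20.2 and 19.9 CPM at 8 h. CENPF, a kinetochore protein, had 498 and 511 CPM at 4 h and 325 and 323 CPM at 0 h (log2 change 0.64, SE 0.04, adjusted p = 3.45e-15). CCNA2, cyclin A, had 118 and 114 CPM at 4 h and 75.9 and 82.4 CPM at 0 h (log2 change 0.55, SE 0.07, adjusted p = 1.57e-08). No 4 h value of these 3 genes reached down to a 0 h value, which was so for 25.5% of all genes. TTK, KIF23, KIF11 and AURKA, kinases and motors of the spindle, rose by 0.53, 0.47, 0.39 and 0.37. BIRC5 and PRC1, which act at the midzone of the spindle, fell by 0.19 and 0.21, and were higher by 0.16 and 0.14 on the ribosomal protein scale.

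Of 28 G1/S and replication genes, 16 fell and 8 rose (median -0.16, but 0.19 on the ribosomal protein scale). The falls included genes of the MCM helicase that unwinds DNA at origins, such as MCM2 by 0.38. No gene of this list was called lower on the ribosomal protein scale. The 8 rises included regulators of entry into S phase. CDC25A, a phosphatase that activates CDK2, had 21.4 and 23.3 CPM at 4 h and 9.35 and 10.7 CPM at 0 h (log2 change 1.16, SE 0.17, adjusted p = 4.15e-07). The licensing factor CDT1 had 22.6 and 17.8 CPM at 4 h and 9.54 and 9.18 CPM at 0 h (log2 change 1.11, SE 0.13, adjusted p = 1.25e-08). The transcription factor E2F3 had 40.2 and 35.5 CPM at 4 h and 24.5 and 21 CPM at 0 h (log2 change 0.73, SE 0.10, adjusted p = 3.2e-07). All 3 were higher in both 4 h libraries than in either 0 h library. Replication-dependent histone genes, whose mRNAs lack a poly(A) tail, were mostly too low to judge, and their near-identical copies share reads. Of 27, 19 were tested and 2 fell (10.5%, against 15.7% of all genes).

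Genes of stress programmes moved in both directions. Of 25 genes of the unfolded protein and integrated stress responses, 7 rose and 7 fell. XBP1, the factor activated by IRE1, had 38.9 and 35.7 CPM at 4 h and 12.6 and 11 CPM at 0 h (log2 change 1.65, SE 0.13, adjusted p = 2.01e-13). TRIB3, a pseudokinase induced by ATF4, had 21.9 and 24.6 CPM at 4 h and 9.16 and 8.43 CPM at 0 h (log2 change 1.40, SE 0.16, adjusted p = 8.39e-09). HERPUD1, a component of endoplasmic reticulum degradation, had 47.4 and 44.9 CPM at 4 h and 20.7 and 27.2 CPM at 0 h (log2 change 0.95, SE 0.11, adjusted p = 7.1e-09). The groups did not overlap in any of the 3. The 7 falls included those of ATF4 (by 0.27) and of the chaperones and folding enzymes HYOU1, CALR and PDIA4 (by 0.30, 0.25 and 0.25), and all 4 of these were above 0 on the ribosomal protein scale. Of 17 heat shock genes 5 rose and 9 fell. DNAJB1, an inducible co-chaperone of HSP70, had 163 and 158 CPM at 4 h and 61.3 and 55.2 CPM at 0 h (log2 change 1.46, SE 0.07, adjusted p = 7.49e-19). The factor HSF2 had 26.2 and 27.6 CPM at 4 h and 14.4 and 15.6 CPM at 0 h (log2 change 0.85, SE 0.16, adjusted p = 3.37e-05). The inducible HSP70 gene HSPA1B, which has a near-identical neighbour in HSPA1A, had 68.8 and 60.4 CPM at 4 h and 46.7 and 45.4 CPM at 0 h (log2 change 0.49, SE 0.09, adjusted p = 5.67e-05). The abundant chaperones HSPD1 and HSP90AA1 fell, by 0.35 and 0.30 (adjusted p = 5.27e-12 and 6.34e-11), and were at 0.00 and 0.05 on the ribosomal protein scale. Of 28 genes induced by p53, 7 rose and 1 fell (median 0.22, but -0.17 on the molecule scale), among them MDM2, which targets p53 for degradation, by 0.33, though MDM2 was at -0.05 on the molecule scale. Of 15 BCL2 family genes 4 rose (26.7%), MCL1 among them, and 2 fell (13.3%), where 12% of all genes rose and 15.7% fell.

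Adhesion was the pathway the study examined, through focal adhesion kinase. Of 19 integrin genes, all tested, 8 fell and none rose (median -0.25, but 0.10 on the ribosomal protein scale, with 4 higher there). ITGB1, the beta subunit shared by many matrix receptors, had 1721 and 1774 CPM at 4 h and 2389 and 2248 CPM at 0 h (log2 change -0.41, SE 0.03, adjusted p = 6.86e-13; chr10:33189246-33247158, minus strand, hg19). ITGA3, which pairs with it in a laminin receptor, had 1608 and 1580 CPM at 4 h and 2035 and 2000 CPM at 0 h (log2 change -0.34, SE 0.04, adjusted p = 4.87e-10). ITGAV, of the vitronectin receptors, had 651 and 654 CPM at 4 h and 746 and 718 CPM at 0 h (log2 change -0.17, SE 0.04, adjusted p = 0.00106). These 3 genes were lower in both 4 h libraries, but ITGAV and ITGA3 were higher by 0.19 and 0.01 on the ribosomal protein scale. No integrin gene, ITGB1 included, was called lower on that scale. PTK2, which encodes focal adhesion kinase, had 132 and 128 CPM at 4 h and 152 and 153 CPM at 0 h (log2 change -0.23, SE 0.06, adjusted p = 0.0016) and was higher by 0.12 on that scale. MET, the receptor for hepatocyte growth factor, had 173 and 188 CPM at 4 h and 178 and 176 CPM at 0 h and did not pass (log2 change 0.03, SE 0.05, adjusted p = 0.756). On the molecule scale it was lower by 0.37 (adjusted p = 0.00215).

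Among 32 focal adhesion genes 10 fell and 8 rose. The falls included structural proteins, with talin TLN1 and vinculin VCL both at -0.21, alpha-actinin ACTN4 at -0.22, and the small GTPase RHOA at -0.33, though all 4 were above 0 on the ribosomal protein scale. The rises included some of the adaptors that relay the signal. BCAR1, the p130Cas scaffold phosphorylated by focal adhesion kinase and SRC, had 85.1 and 75.8 CPM at 4 h and 33.5 and 36.1 CPM at 0 h (log2 change 1.21, SE 0.10, adjusted p = 2.55e-12). The SH2 adaptor CRKL had 79.1 and 83.2 CPM at 4 h and 45.4 and 43.6 CPM at 0 h (log2 change 0.87, SE 0.09, adjusted p = 1.36e-10). The RAS exchange factor SOS1 had 85.3 and 89.3 CPM at 4 h and 49.8 and 53.8 CPM at 0 h (log2 change 0.75, SE 0.08, adjusted p = 2.32e-09). In BCAR1, CRKL and SOS1 the 4 h libraries were above both 0 h libraries. Collagens, laminins and other matrix genes fell in 12 of 23 tested (24 listed) and rose in none (median -0.25, but 0.10 on the ribosomal protein scale). On that scale 5 were called higher and none lower. THBS1, thrombospondin, had 33.2 and 32.1 CPM at 4 h and 45.4 and 41.8 CPM at 0 h (log2 change -0.42, SE 0.08, adjusted p = 3.85e-05). Of 24 receptor tyrosine kinases tested (25 listed), 3 rose (12.5%) and 5 fell (20.8%), near the shares of all genes, with a median of 0.01.

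Antigen presentation genes fell in 11 of 18, with none rising (median -0.27, but 0.08 on the ribosomal protein scale). On that scale 2 were called higher and none lower. B2M, the light chain of MHC class I, had 566 and 596 CPM at 4 h and 762 and 765 CPM at 0 h (log2 change -0.39, SE 0.04, adjusted p = 1.16e-10). HLA-C had 134 and 130 CPM at 4 h and 180 and 170 CPM at 0 h (log2 change -0.41, SE 0.06, adjusted p = 2.47e-07). TAP2, a subunit of the peptide transporter, had 127 and 126 CPM at 4 h and 162 and 164 CPM at 0 h (log2 change -0.36, SE 0.05, adjusted p = 1.07e-06). HLA genes share sequence with each other, so their counts are less certain. Mesenchymal genes fell in 9 of 22 and rose in none (median -0.26, but 0.08 on the ribosomal protein scale). On that scale 3 were called higher and none lower. From this list TPM2, a tropomyosin, had 249 and 234 CPM at 4 h and 330 and 322 CPM at 0 h (log2 change -0.43, SE 0.05, adjusted p = 2.24e-09), and VIM, vimentin, changed by -0.27. Of 16 epithelial genes tested (19 listed) 4 rose and 1 fell (median 0.15, but -0.27 on the molecule scale). ELF3, an epithelial transcription factor, had 3.23 and 4.11 CPM at 4 h and 0.811 and 0.859 CPM at 0 h (log2 change 2.14, SE 0.27, adjusted p = 4.45e-08). The tight junction gene CLDN4 had 149 and 149 CPM at 4 h and 93.2 and 97.8 CPM at 0 h (adjusted p = 6.75e-08). TJP1, which encodes a scaffold of the same junctions, had 119 and 115 CPM at 4 h and 89.2 and 86.6 CPM at 0 h (adjusted p = 4.26e-05). KRT8 had 2717 and 2605 CPM at 4 h and 3415 and 3342 CPM at 0 h (log2 change -0.34, SE 0.03, adjusted p = 1.84e-11). KRT18 had 1552 and 1540 CPM at 4 h and 1722 and 1779 CPM at 0 h (log2 change -0.18, SE 0.03, adjusted p = 2.79e-05), changes that were 0.01 and 0.17 on the ribosomal protein scale. CD68, the one immune marker past the threshold and also a lysosomal protein of many cells, had 142 and 137 CPM at 4 h and 202 and 198 CPM at 0 h (log2 change -0.53, SE 0.07, adjusted p = 2.35e-07). CD68 was not called lower on the ribosomal protein scale.

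Interferon-stimulated genes rose in 6 (18.8%) and fell in 3 (9.38%) of 32 tested (33 listed), where 12% of all genes rose and 15.7% fell. RIGI, the sensor of viral RNA, had 114 and 115 CPM at 4 h and 62.5 and 63.8 CPM at 0 h (log2 change 0.86, SE 0.10, adjusted p = 1.35e-08). IFIT5, another RNA-binding effector, had 16.2 and 12.5 CPM at 4 h and 7.73 and 6.66 CPM at 0 h (log2 change 0.99, SE 0.19, adjusted p = 4.67e-05). The transcription factor IRF1 had 9.78 and 7.79 CPM at 4 h and 4.91 and 4.46 CPM at 0 h (log2 change 0.90, SE 0.21, adjusted p = 0.00102). Long noncoding RNAs fell in 9 of 27 tested (28 listed) and rose in 1, with a median of -0.20, or 0.16 on the ribosomal protein scale. NORAD, a cytoplasmic RNA, was the 1 that rose, with 206 and 219 CPM at 4 h and 122 and 120 CPM at 0 h (log2 change 0.81, SE 0.05, adjusted p = 3.1e-17). The falls were mostly in host genes of small nucleolar RNAs, such as SNHG1, with 48.3 and 45.6 CPM at 4 h and 61.5 and 66.5 CPM at 0 h (log2 change -0.45, SE 0.08, adjusted p = 1.23e-05), and EPB41L4A-AS1, with 2.58 and 3.23 CPM at 4 h and 5.96 and 5.37 CPM at 0 h (log2 change -0.96, SE 0.23, adjusted p = 0.0011). MALAT1, a nuclear RNA, had 184 and 187 CPM at 4 h and 205 and 205 CPM at 0 h, a difference whose call (adjusted p = 0.0332) was lost without any 1 of the 4 libraries, at adjusted p = 0.089 to 0.165. NEAT1, the scaffold of paraspeckles, had 781 and 832 CPM at 4 h and 777 and 782 CPM at 0 h and did not pass (log2 change 0.05, SE 0.04, adjusted p = 0.403), though it passed in fits of fewer libraries such as the 4 alone (0.11, adjusted p = 0.00285). Where counting used no strand, reads of antisense RNAs cannot be told apart from those of their partners.

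Zinc finger genes of chromosome 19, a family with many short-lived mRNAs, rose in 3 of 39 tested (40 listed), below the 12% of all genes, and fell in none. ZNF260 had 26.3 and 26.9 CPM at 4 h and 16.5 and 13.3 CPM at 0 h (log2 change 0.83, SE 0.15, adjusted p = 1.86e-05). Of 26 genes of the RNA polymerase II machinery 8 rose and 7 fell. The general factor GTF2B had 19.6 and 20.7 CPM at 4 h and 8.11 and 8.86 CPM at 0 h (log2 change 1.25, SE 0.18, adjusted p = 4.93e-07). The kinase CDK7 had 35.2 and 36.2 CPM at 4 h and 21.2 and 21.6 CPM at 0 h (log2 change 0.74, SE 0.13, adjusted p = 1.38e-05). BRD2, a bromodomain reader of acetylated histones, had 147 and 147 CPM at 4 h and 104 and 103 CPM at 0 h (log2 change 0.50, SE 0.06, adjusted p = 6.07e-09), all higher in both 4 h libraries. The falls included POLR2L and POLR2C, subunits of the polymerase itself, by 0.43 each. Neither was called lower on the ribosomal protein scale. Of 28 genes of cholesterol synthesis and its control 6 rose and 9 fell. INSIG1, a sterol-responsive regulator of the pathway, had 16.9 and 16.6 CPM at 4 h and 11 and 9.23 CPM at 0 h (log2 change 0.73, SE 0.14, adjusted p = 9.08e-05). The sterol desaturase SC5D had 40.7 and 45.2 CPM at 4 h and 57 and 59.2 CPM at 0 h (log2 change -0.44, SE 0.10, adjusted p = 0.000576). SC5D was not called lower on the ribosomal protein scale. Of 11 genes of the MYC and MAX network tested (12 listed), 2 rose (18.2%) and 1 fell (9.09%), where 12% of all genes rose and 15.7% fell.

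The change at 4 h went with the exonic length of the gene entry. Over 13560 genes with a mean of at least 1 CPM, the log2 change and the exonic length in the deposited tables had a Spearman rho of 0.24 across genes, which are not independent replicates and share these 4 libraries. Of the genes with the shortest exonic length (49 to 2216 bases) 6.55% rose and 27.4% fell, with a median change of -0.18. Of those with the longest (5853 to 1087452 bases) 22% rose and 14.1% fell, with a median of 0.05. Each is 1 of 4 groups of near equal size. The longest entries exceed the length of any single mRNA. Over all 13560 genes 15% rose and 20.2% fell. Gene span had a rho of 0.11 and the number of exon blocks one of -0.01. Of 370 genes that RefSeq types as pseudogenes, 1.62% rose and 10.8% fell. Ribosomal protein and oxidative phosphorylation transcripts are short, and what part length has in their fall was not tested.

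The other KO time points share the 0 h libraries with this comparison, so their changes are set side by side and not correlated. At 2 h 862 genes (4.87%) were higher and 760 (4.29%) lower than at 0 h, at 6 h 3495 (19.7%) and 4958 (28%; 47.7% in either direction), and at 8 h 2004 (11.3%) and 1903 (10.7%). The median log2 change of the immediate early genes was -0.01 at 2 h, 0.64 at 4 h, 3.16 at 6 h and -0.09 at 8 h. For the KLF factors it was 0.01, 0.86, 2.01 and 0.03 at these times, and for the ERK feedback inhibitors -0.13, 0.77, 2.64 and -0.16. Ribosomal protein genes had medians of 0.16, -0.38, -0.67 and 0.28, and oxidative phosphorylation genes 0.17, -0.34, -0.64 and 0.23. The G2/M genes differed from these lists, with -0.21, 0.17, 0.20 and -0.40, since they were close to as high at 4 h as at 6 h. They were not alone in this, as interferon-stimulated genes had medians of -0.26, 0.04, 0.04 and -0.54. Tested directly, 4 h against 6 h, 1843 genes (10.4%) were lower at 4 h and 3008 (17%) higher. Lower at 4 h were 16 of 20 immediate early genes, 11 of 12 KLF factors and 13 of 15 ERK feedback inhibitors. Higher at 4 h were 71 of 79 ribosomal protein genes, and of 30 G2/M genes 5 were higher and 4 lower.

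The NC-labelled libraries allow a test of whether the change at 4 h differed with the genotype label. In them 4802 genes (27.1%) were higher and 4317 (24.4%) lower at 4 h than at 0 h, 51.5% in all. The KO change minus the NC change was above 0 for 1900 genes (10.7%) and below 0 for 2895 (16.3%) at an adjusted p under 0.05, with a median of -0.07. This split turned with the processing: 3477 above and 2062 below without a filter on low counts, 2860 above and 2441 below with size factors from DESeq2, 293 and 5121 with ribosomal protein scaling, and 33 and 8858 on the molecule scale. In several lists, among them lists of mRNAs known as short-lived, the median rise was smaller in KO-labelled than in NC-labelled libraries. The immediate early genes had a median change of 0.64 in KO libraries and 2.56 in NC libraries, and the difference was below 0 for 18 of 20 and above 0 for EGR2, which is near 0 counts in KO libraries. For the KLF factors the medians were 0.86 and 2.21 (8 of 12 below 0, 1 above), for the ERK feedback inhibitors 0.77 and 2.74 (12 of 15 below, none above) and for the m6A factors 0.14 and 0.75 (15 of 20 below, 1 above).

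CCN1 rose by 1.66 in KO libraries and by 6.29 in NC libraries, which had 637 and 615 CPM at 4 h and 8.6 and 7.32 CPM at 0 h. MYC changed by 0.10 in KO libraries and by 3.52 in NC libraries (difference -3.42, adjusted p = 1.1e-18), and YTHDF2 by 1.48 and 3.19 (difference -1.71, adjusted p = 3.12e-11). Zinc finger genes of chromosome 19 had medians of 0.08 in KO libraries and 1.04 in NC libraries, with 18 of 39 below 0 and none above. The medians of the difference for these 5 lists were below 0 under every scaling run. Ribosomal protein genes fell less in KO libraries, with medians of -0.38 in KO and -0.62 in NC libraries. The difference was above 0 for 61 of 79 and below 0 for none, but its median of 0.26 was -0.01 on the ribosomal protein scale and -0.44 on the molecule scale. ITGB1 changed by -0.41 in KO and -0.66 in NC libraries (difference 0.25, adjusted p = 4.21e-05). The difference was below 0 for 17 of 28 G1/S genes and above 0 for 1, and for 30 G2/M genes it was below 0 for 8 and above 0 for 13. The change of BTG1 was not shown to differ, at 2.55 in KO and 2.75 in NC libraries (difference -0.19, SE 0.24, adjusted p = 0.631). The keratin KRT19 had 411 and 408 CPM at 4 h and 412 and 410 CPM at 0 h in KO libraries, against 0 and 0 CPM at 4 h and 0.672 and 0.188 CPM at 0 h in NC libraries. Since the KO and NC libraries differ in CDKN2A and KRT19 as well, the genotype label and other differences between these cells cannot be told apart.

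**Figure D5:**
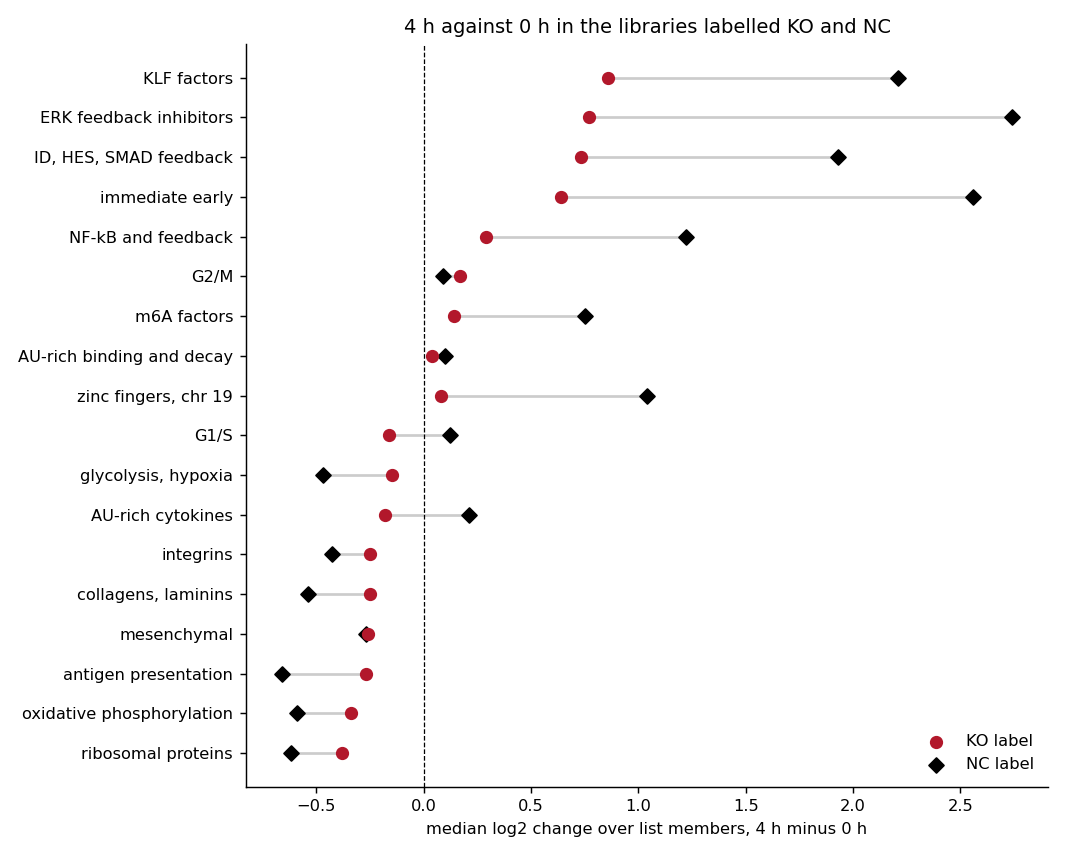
Median log2 change, 4 h minus 0 h, over the tested members of 18 gene lists in KO-labelled libraries (red circles) and NC-labelled libraries (black diamonds). Immediate early genes had 0.64 in KO and 2.56 in NC libraries and ribosomal protein genes -0.38 in KO and -0.62 in NC libraries, so in these 2 lists the KO median lay nearer 0; the ribosomal protein difference was -0.01 on a scale set by those genes and -0.44 on the molecule scale.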

How the data were processed

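RNA-seq of the 20 actinomycin D libraries was used. The deposited tables list 43682 genes with counts of reads, RPM and a molecule signal, per the file headers. STAR, RSEM, Bowtie2, deepTools and hg19 are named in the submitters' processing notes. The annotation, the counting program and the use of strand are named in no source used here. Names were brought up to date with RefSeq: 42335 were current, 408 were changed and 939 kept. The deposited RPM values were used only for their sum per library, which was 45.45% and 45.41% of the RPM total at 4 h and 46.15% and 46.2% at 0 h.

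Counts were fitted in R 4.3.3 with edgeR 4.0.16, one mean per genotype label and time over the 20 libraries, with filterByExpr, TMM scaling, the quasi-likelihood F test and Benjamini-Hochberg adjustment at 0.05. Factors were 1.063 and 1.064 at 4 h and 0.966 and 0.971 at 0 h. The KO change minus the NC change is an interaction contrast of this fit. The procedure was tested on simulated data. Alternatives used DESeq2 1.42.0 and limma 3.58.1, with limma run on log2 of the deposited molecule signal. Chi-square per degree of freedom between libraries of a group was 3.90 to 5.30, so none was a copy of another within counting noise, and each was entered as 1 sample. The members and gene lists were chosen with earlier results of these data known. The genes named were a set of always-named genes, the 12 largest rises and falls of at least 10 CPM with groups that do not overlap, up to 6 of the largest changes per list, and the 6 largest KO minus NC differences of each sign among genes of at least 10 CPM over the 8 libraries whose changes do not overlap between the labels. Other list members were named after their values had been seen. Some genes that this rule names are not reported here.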

Additional observations from a re-analysis of the deposited data

Results flagged for a closer look

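In each gene here the 4 h change differed between the KO-labelled and the NC-labelled libraries by the interaction test of the edgeR fit, and the genes are the 6 largest differences of each sign among genes with a mean of at least 10 CPM over the 8 libraries and changes that do not overlap between the labels, so that larger differences of other genes are left out. Below 0 were FOS (difference -5.96, adjusted p = 5.57e-14), DUSP1 (-5.24, adjusted p = 1.39e-11), NUAK2 (-4.87, adjusted p = 5.58e-06), CCN1 (-4.64, adjusted p = 2.4e-31), EDN1 (-4.51, adjusted p = 1.61e-19) and ELMOD1 (-5.41, adjusted p = 0.0178). DUSP1, a phosphatase of MAP kinases, had 7.77 and 4.64 CPM at 4 h and 6.15 and 3.33 CPM at 0 h in KO libraries, against 266 and 251 CPM at 4 h and 5.11 and 5.58 CPM at 0 h in NC libraries. The peptide hormone gene EDN1 had 10 and 11.1 CPM at 4 h and 9.49 and 7.25 CPM at 0 h in KO libraries, against 162 and 173 CPM at 4 h and 5.96 and 5.72 CPM at 0 h in NC libraries. ELMOD1 is nearly absent from NC libraries, with 0 and 0.33 CPM at 4 h and 0 and 0 CPM at 0 h.

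Above 0 were MATK (6.74, adjusted p = 0.000728), KRT19 (6.32, adjusted p = 7.3e-05), SVEP1 (5.15, adjusted p = 0.0392), NPNT (5.02, adjusted p = 0.0414), FLNC (4.97, adjusted p = 0.0289) and AGR2 (4.81, adjusted p = 0.013). All 6 are near 0 counts under 1 of the genotype labels, so the fitted differences depend on the prior count and are no bounds. MATK, a kinase, had 0.437 and 0.242 CPM at 4 h and 0 and 0 CPM at 0 h in KO libraries, against 63.1 and 64.6 CPM at 4 h and 112 and 109 CPM at 0 h in NC libraries. AGR2, a protein of secretory epithelium, had 159 and 158 CPM at 4 h and 200 and 188 CPM at 0 h in KO libraries, against 0 and 0 CPM at 4 h and 0.179 and 0.188 CPM at 0 h in NC libraries. The calls of SVEP1 and NPNT were lost without either 0 h library (adjusted p = 0.153 and 0.13 for SVEP1, 0.154 and 0.132 for NPNT). SVEP1 was at 0.18 without the second 4 h library, and NPNT lost its call without the first (adjusted p = 0.185).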

How the results depend on the processing

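With only 2 libraries a group, leaving out 1 of the 4 gave 1635 to 1702 higher and 2090 to 2150 lower genes, and 3987 to 4107 with a KO minus NC difference. Other counts that moved by over 1.5 times were 6226 higher and 60 lower on the ribosomal protein scale, 494 higher and 6344 lower on the molecule scale, 1171 lower with plain totals, and 8891 KO minus NC differences on the molecule scale. Of the KO minus NC differences, the 1900 above 0 became 3477 (2062 below) with no count filter, 2860 (2441 below) with DESeq2 size factors, 2896 (2465 below) with the DESeq2 Wald test, 293 (5121 below) on the ribosomal protein scale and 33 (8858 below) on the molecule scale. The immediate early median (0.64) was 0.77, 0.99 and 0.27 with plain totals, ribosomal protein and molecule scaling, and the KLF median (0.86) was 1.21 and 0.53 with the last 2 of these. The ribosomal protein median (-0.38) was -0.24, -0.02 and -0.80 under these 3, -0.31 with no count filter and -0.32 with only 4, 10 or 16 libraries. The oxidative phosphorylation median (-0.34) was -0.20, 0.01 and -0.78, and -0.28 in each of the other 4. The set of 16 libraries, without KO 6 h and NC 4 h, was chosen after seeing the data. Of 191 single genes, those that turned on the ribosomal protein scale were FUBP1 (0.24), FUBP3 (0.12), ITGAV (0.19), PTK2 (0.12), MALAT1 (0.21), ACTB (0.15), METTL3 (0.32), BIRC5 (0.16), PRC1 (0.14), ZFP36 (0.23), HSPD1 (0.00), HSP90AA1 (0.05), HMGA1 (0.01), ITGA3 (0.01), KRT8 (0.01), KRT18 (0.17), ACTN4 (0.13), ATF4 (0.09), CALR (0.10), HYOU1 (0.05), PABPC1 (0.05), PDIA4 (0.11), RHOA (0.02), TLN1 (0.15), VCL (0.15) and VIM (0.08). On the molecule scale KHSRP (-0.33), MET (-0.37), NEAT1 (-0.35), AGO2 (-0.11), MDM2 (-0.05) and VEGFA (-0.08) turned, and 42 calls were lost without turning, against 40 on the ribosomal protein scale and 9 to 13 without 1 library. Replicate numbers did not pair the libraries: same-numbered deviations of 4 h and 0 h correlated at 0, and at -0.04 to 0.03 over all pairs of groups. With the replicate number as a block, 2096 genes were higher, 2762 lower and 4749 had a KO minus NC difference, and 1 of the single genes lost its call. The fits of 4 and of 10 libraries hold no NC library, so the KO minus NC difference was not run in them.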
